A study of Homo sapiens with 21 samples.

Results

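The genes described here are 34 genes of cholesterol and fatty acid synthesis, out of 37355 genes in the count table. They were chosen by symbol from a given list, and each symbol matched 1 row. The sterol branch holds 21 genes, from the mevalonate pathway to cholesterol with its sensors and 1 transport protein. The fatty acid branch holds 13, from the supply of acetyl-CoA and NADPH to desaturation and activation of fatty acids. All 34 passed the filter on low counts, which left 17650 genes for testing.

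RNA was sequenced from BT474, a human luminal breast cancer cell line in which the gene for the receptor HER2 is amplified, in 7 groups of 3 libraries. The cells grew in serum-containing medium and were untreated, or received 10 µg/mL trastuzumab for 3 days, or received 10 µg/mL of trastuzumab and 10 µg/mL of pertuzumab together for 3 days. Trastuzumab and pertuzumab are antibodies to different sites of HER2. The remaining groups were BT474-derived pools that had become resistant, 2 to trastuzumab (BT-TR1 and BT-TR2) and 2 to both antibodies (BT-TPR1 and BT-TPR2). For 7 days before harvest the pools received no antibody, so they differ from the treated cells both in resistance and in the time since antibody. Each resistance class rests on 2 pools, and no label says that the libraries of a group came from separate cultures, so the p-values measure the spread between these libraries only.

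Total counts ran from 7939270 in BT-TR1 replicate 3 to 21746391 in untreated replicate 3. All 9 luminal and HER2 amplicon markers were present, with a summed level of 6840 to 14700 CPM (counts scaled to an equal library total). Summed markers of other cells reached at most 46.3 CPM for fibroblasts, 18.4 for endothelial cells and 7.44 for basal epithelial cells. The 2 leukocyte markers counted stayed at or under 0.207 CPM. Replicate 1 of each group had relatively more counts on GC-rich genes than the other replicates: its deviation from the group mean correlated with GC content across genes at r = 0.313 to 0.627, against -0.537 to 0.083 in the others. The GC-rich members FASN, TM7SF2 and DHCR7 had wide spreads. The part of this shift in them was not tested, but changes with counts corrected for GC content are given for each below. Below, "untreated 1" stands for replicate 1 of the untreated group, and the same form is used for every library.

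Cholesterol is built from acetyl-CoA through mevalonate, isoprenoid units, squalene and lanosterol. The transcription factor SREBP2, encoded by SREBF2, switches this route on when sterols in the endoplasmic reticulum run low, while INSIG1 holds the SREBP precursors there when sterols are sufficient. SREBP1, encoded by SREBF1, drives fatty acid synthesis, in which FASN makes palmitate that elongases and desaturases then lengthen and unsaturate. Fatty acid synthesis is known to be raised in HER2-positive breast cancer, where HER2 signalling through PI3K and mTORC1 promotes SREBP activity.

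The members were lower in cells treated for 3 days. In untreated cells the sterol branch summed to 3645 ± 341 CPM (SD, n = 3), and in cells given trastuzumab and both antibodies it summed to 2305 ± 243 and 2395 ± 347 CPM. The fatty acid branch summed to 8556 ± 1110 CPM in untreated cells, and to 4984 ± 535 and 5290 ± 979 CPM in the treated groups. In both branches no treated library reached the lowest untreated library. Among the pools, the sterol branch summed to 2929 ± 45 CPM in BT-TR1, 2553 ± 150 in BT-TR2, 2320 ± 203 in BT-TPR1 and 2446 ± 191 in BT-TPR2. For the fatty acid branch the sums were 8552 ± 289, 7128 ± 781, 6291 ± 884 and 6464 ± 948 CPM. The sterol sum of the pools thus stayed under every untreated library, whereas the fatty acid sum of BT-TR1 lay within the untreated range. No test was run on these sums, which the most abundant members dominate. In bulk RNA, fewer cells expressing a gene and less of its RNA per cell cannot be told apart.

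**Figure D1:**
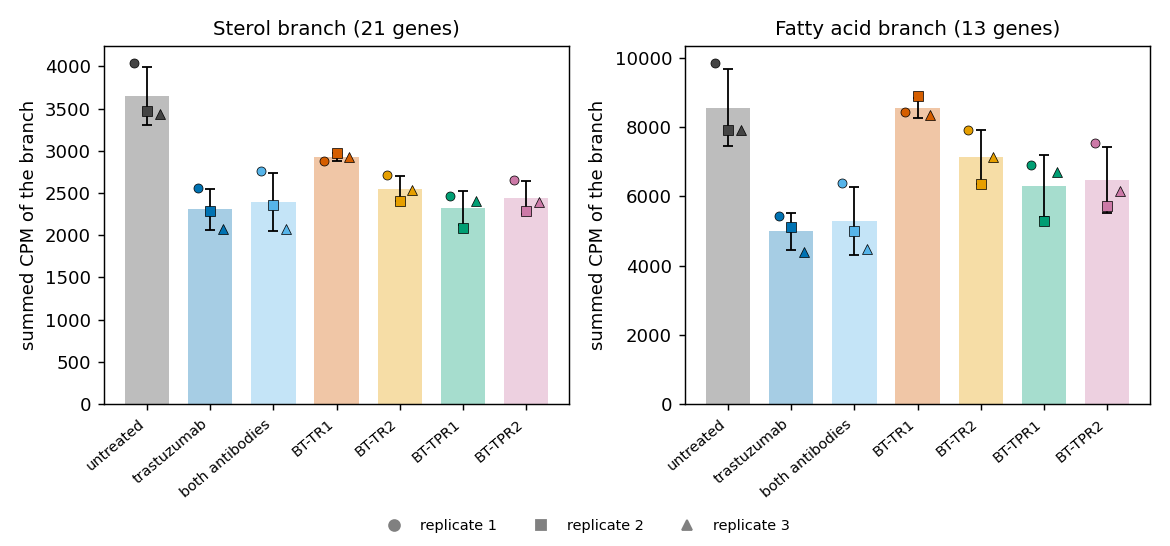
Summed level of the 21 sterol genes (left) and the 13 fatty acid genes (right), in CPM, in the 7 groups. Bars are means of 3 libraries, error bars are the SD, and symbols are single libraries by replicate number. The sterol sum is 3645 CPM in untreated cells and between 2305 and 2929 CPM elsewhere, while the fatty acid sum of BT-TR1, 8552 CPM, lies beside that of untreated cells, 8556 CPM.

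A gene was called when the adjusted p of edgeR's quasi-likelihood test was under 0.05 (Benjamini-Hochberg over 17650 genes). With trastuzumab 12 of 21 sterol and 6 of 13 fatty acid members fell and none rose, where 3.78% of all tested genes fell and 3.71% rose. With both antibodies 14 sterol and 6 fatty acid members fell and none rose, against 6.02% and 6.39% of all genes. These treatments were compared with the same untreated libraries. With trastuzumab the libraries of 14 sterol and 10 fatty acid members lay wholly below the untreated ones, beside 12.9% of all genes, and with both antibodies those of 16 and 9, beside 14.5%. Members that were not called also lay on the lower side: 20 of 21 sterol and 12 of 13 fatty acid members had a negative log2 fold change in each treatment. The median change of the sterol branch was -0.62 with trastuzumab and -0.53 with both, and that of the fatty acid branch -0.71 and -0.68, beside -0.02 and -0.01 over all genes. Adding pertuzumab gave no further call: between both antibodies and trastuzumab, 0 of 34 members were called, where 0.867% of all genes were. In that comparison HMGCS1 was the exception once replicate numbers were matched as a block (log2 fold change 0.33, adjusted p = 0.0331, where 1.26% of all genes were called higher).

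The number of calls with trastuzumab depended on how replicates were handled. Same-numbered libraries deviated together (r of at least 0.204 in each of 3 pairs), and with the number as a block 19 sterol and 11 fatty acid members were called lower, where 14.8% of all genes were. With the 6 libraries of the comparison fitted alone, the counts were 6 and 3 for trastuzumab, where 1.3% of all genes were lower, and 2 and 3 for both antibodies, where 2.86% were. The members still called in that fit were SQLE, CYP51A1, SCD, ELOVL6 and FADS1 in both treatments, and HMGCS1, MVD, INSIG1 and STARD4 with trastuzumab. Without the filter on low counts, HSD17B7, SC5D and ACLY lost their calls with trastuzumab, and HMGCS1, ACAT2, FDPS, SC5D and ACLY lost theirs with both antibodies. The counts in that fit were 15 and 7 with trastuzumab (3.04% of all genes) and 13 and 7 with both antibodies (4.45%). Leaving out trastuzumab 3 reduced the fatty acid count with trastuzumab to 3. For both antibodies the sterol count dropped to 9 without untreated 1, 2 or 3, to 7 without both antibodies 2 and to 4 without both antibodies 3, and the fatty acid count to 3 without both antibodies 2.

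The 4 pools, each compared with the same untreated libraries, also had mostly lower sterol genes. In BT-TR1, 10 sterol members were lower and 2 higher, and 5 fatty acid members were lower and 4 higher, where 22.3% of all genes were lower and 21.3% higher. BT-TR2 had 11 sterol and 4 fatty acid members lower and 0 and 2 higher, against 12.1% and 12.7% of all genes. BT-TPR1 had 12 sterol and 5 fatty acid members lower and 0 and 1 higher, against 14.4% and 12.9%. BT-TPR2 had 10 sterol and 5 fatty acid members lower and 0 and 1 higher, against 16% and 15.6%. The median change of the sterol branch in these pools was -0.25, -0.47, -0.55 and -0.48 in the same order, and that of the fatty acid branch -0.15, -0.45, -0.39 and -0.70. Leaving out single libraries moved some of these counts. Without untreated 1 the sterol members called lower numbered 6 for BT-TR1, 6 for BT-TR2 and 7 for BT-TPR1, and the fatty acid members called lower in BT-TR1 numbered 3. Without untreated 2 the sterol counts were 7 in BT-TR2 and 7 in BT-TPR1, with 1 sterol member higher in BT-TR2, 3 fatty acid members lower in BT-TR1 and 2 higher in each of BT-TPR1 and BT-TPR2. Sterol counts also dropped to 5 and 6 in BT-TR2 without BT-TR2 2 and 3, and to 6 in BT-TPR1 without BT-TPR1 2. Fatty acid members called lower in BT-TR1 numbered 3 without BT-TR1 1 or 3. One sterol member became called higher in BT-TR2 without BT-TR1 1, BT-TR1 3, BT-TR2 1 or BT-TPR2 1, and 2 fatty acid members were called higher in BT-TPR1 without BT-TR1 3 or BT-TPR2 1 and in BT-TPR2 without BT-TPR2 1. With the replicate block 2 sterol members were called higher in BT-TR2 (22.9% of all genes), and 2 fatty acid members in each of BT-TPR1 (23.2%) and BT-TPR2 (24.6%).

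**Figure D2:**
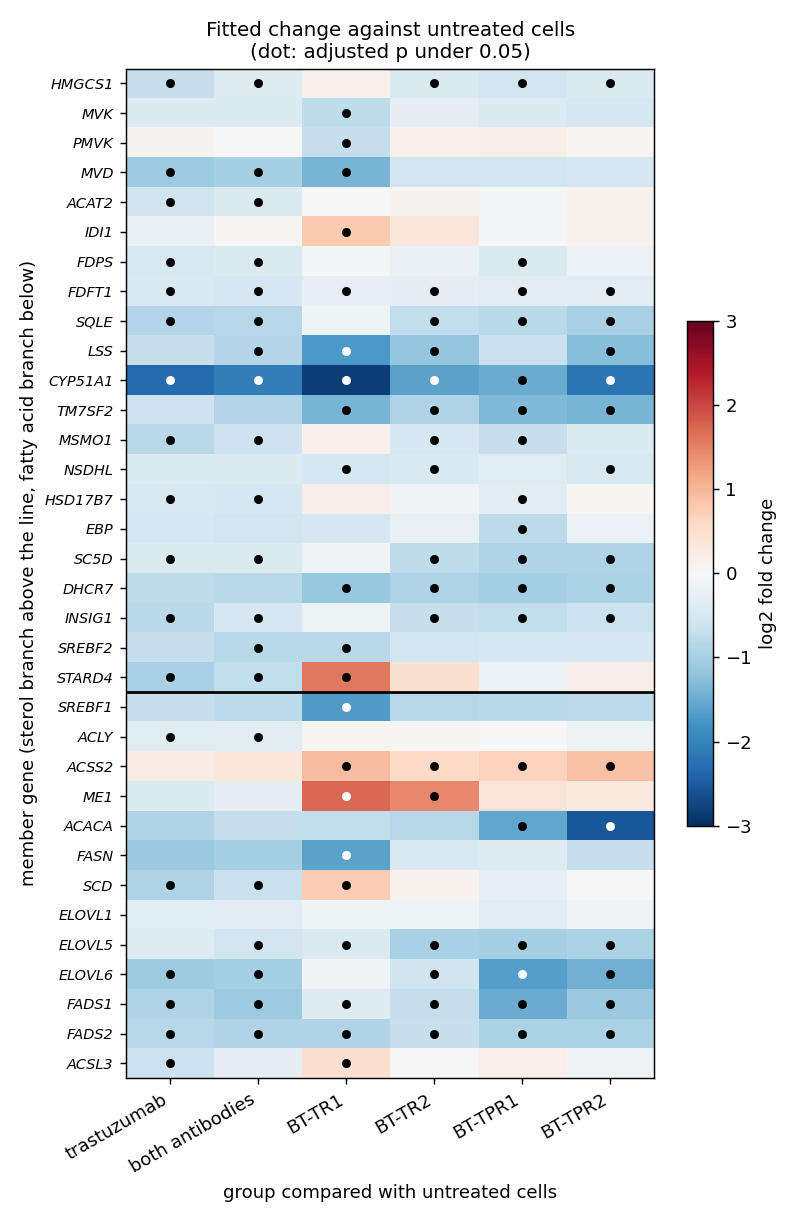
Fitted log2 fold change of each member (rows) in the 6 groups compared with untreated cells (columns), with the sterol branch above the line and the fatty acid branch below. Blue is lower and red is higher than in untreated cells, and dots mark an adjusted p under 0.05 (edgeR). The treated columns are blue in all but 4 cells, while STARD4, ME1, ACSS2, SCD, IDI1 and ACSL3 are red with a dot in BT-TR1.

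Across the 6 comparisons with untreated cells, FDFT1, CYP51A1, FADS1 and FADS2 were lower in all 6. SQLE, INSIG1, HMGCS1, SC5D and ELOVL6 were lower in all but BT-TR1, where the change of HMGCS1 was 0.13, and ELOVL5 was lower in all but the comparison with trastuzumab. With counts corrected for GC content, SC5D (-0.38, edgeR adjusted p = 0.0204) and ELOVL6 (-0.32, adjusted p = 0.0307) were called lower in BT-TR1 too. INSIG1 was called lower there with that correction and the replicate block together (-0.24, adjusted p = 0.0425). ACSS2 was the single member with a positive change in all 6, and was called higher in the 4 pools. ELOVL1, an elongase of very long saturated chains, was called in none of the 6, but under the replicate block it was lower with trastuzumab (-0.36, adjusted p = 0.0102) and in BT-TPR1 (-0.30, adjusted p = 0.018).

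Promoters are shown for members that fell together or moved apart, because the SREBPs are known to act through sterol regulatory elements beside boxes bound by the factor NF-Y. RefSeq promoter windows (GRCh38.p14, from 250 bases before to 50 after each start) were matched for 30 members, as 40 windows. No window was matched for ACAT2, FASN, FDFT1 and SQLE. The letters TCACNCCAC, searched on both strands, were found in 1 of 40 windows, that of SREBF2, 133 bases before its start, and in 1.13% of all 35116 windows. The NF-Y box CCAAT, on either strand, was found in 28 of 40 windows (70%), in 18 of 23 sterol windows (78.3%) and in 10 of 17 fatty acid windows (58.8%), beside 34.61% of all windows. Windows of 1 gene can overlap, and a match of letters is not evidence of binding. Matches are in capitals below, with ATTGG for CCAAT on the opposite strand, in stretches before the start of SREBF2 (chr22:41832945-41833014, + strand), INSIG1 (chr7:155297693-155297732, + strand), STARD4 (chr5:111512651-111512710, - strand), MVD (chr16:88663162-88663261, - strand) and SCD (chr10:100346988-100347067, + strand).
SREBF2: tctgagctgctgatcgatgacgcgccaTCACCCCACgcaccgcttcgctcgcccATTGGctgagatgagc
INSIG1: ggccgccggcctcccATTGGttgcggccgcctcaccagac
STARD4: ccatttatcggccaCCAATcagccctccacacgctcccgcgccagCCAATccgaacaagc
MVD: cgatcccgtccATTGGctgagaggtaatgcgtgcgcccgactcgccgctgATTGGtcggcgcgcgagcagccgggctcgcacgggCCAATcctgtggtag
SCD: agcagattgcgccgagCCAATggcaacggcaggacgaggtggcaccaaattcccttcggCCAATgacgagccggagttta
The stretch of SREBF2 holds both sets of letters within 70 bases. STARD4, whose direction differed between the treated cells and BT-TR1, and INSIG1, MVD and SCD hold CCAAT letters but not TCACNCCAC in the 300 bases searched. Every other matched member except SREBF2 also lacked TCACNCCAC. Other forms of the sterol regulatory element were not searched, so lack of these letters is not evidence that the element is absent.

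Levels per kilobase of exon, which put rows of different length on a common scale, spanned a wide range in untreated cells. Some rows are not a full measure of their gene. Those of CYP51A1 and FDPS hold 6.16% and 54.6% of the counts of the gene plus its named pseudogenes. SCD was highest at 484 ± 13 CPM per kilobase (SD, n = 3), followed by ELOVL5 at 218 ± 25.8, FADS2 at 157 ± 39.4 and FASN at 148 ± 72.1. In the sterol branch HMGCS1 (108 ± 9.52) and TM7SF2 (106 ± 37.4) were highest. The spreads of FADS2 and FASN, and of HMGCS1 and TM7SF2, overlapped. LSS was at 1.02 ± 0.287 and ACACA at 0.0513 ± 0.0103 CPM per kilobase. ACACA had only 1 to 17 counts and LSS 11 to 177 counts per library, which limits what can be said of them.

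In the mevalonate pathway, HMGCS1, which makes HMG-CoA, was at 506 ± 44.8 CPM in untreated cells and 312 ± 36.9 CPM with trastuzumab, a log2 fold change of -0.70 ± 0.11 (SE, edgeR adjusted p = 0.000765). Under both antibodies HMGCS1 changed by -0.38 ± 0.11 (adjusted p = 0.0356), a call that ended without BT-TPR1 1 or 2, BT-TR2 2, BT-TR1 1, 2 or 3, both antibodies 1, 2 or 3, trastuzumab 2 or untreated 2 or 3 (adjusted p 0.0523 to 0.159). ACAT2, which condenses acetyl-CoA, fell in both treatments (-0.59 and -0.43, adjusted p = 0.0045 and 0.0233) and changed by 0.01, 0.09, -0.02 and 0.10 in the pools, with no call. The second of these calls ended without untreated 1 or 3 or both antibodies 2 or 3 (adjusted p 0.0537 to 0.143). For ACAT2, 52.3% of exon bases overlap genes on the opposite strand, among them SOD2 and TCP1, and the counting is not stated to use strand. MVK and PMVK, the kinases of mevalonate and phosphomevalonate, were called in BT-TR1, where their changes were -0.77 and -0.72. With counts corrected for GC content these were -0.22 (adjusted p = 0.144) and -0.07 (adjusted p = 0.62), and the MVK call also ended without untreated 1 or BT-TR1 2 or 3 (adjusted p 0.0653 to 0.113). MVK was also called lower under the replicate block with trastuzumab (-0.41, adjusted p = 0.0104) and in BT-TR2, BT-TPR1 and BT-TPR2 (adjusted p = 0.0358, 0.00522 and 0.000767). After GC correction PMVK was called higher in BT-TPR1 (0.33, adjusted p = 0.011).

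MVD decarboxylates mevalonate diphosphate. Its levels were 90.5, 47.7 and 53.7 CPM in the untreated libraries, 34.2, 30.2 and 26.2 under trastuzumab, and 38.6, 36.7 and 20.4 under both antibodies. All treated libraries lay below all untreated ones, and the changes were -1.08 ± 0.32 and -1.0 ± 0.32 (edgeR adjusted p = 0.0473 and 0.0468). Both calls were near the threshold: the first ended without BT-TPR2 2, BT-TPR1 2 or 3, BT-TR2 2, BT-TR1 2, both antibodies 2, trastuzumab 1, 2 or 3 or untreated 1, 2 or 3 (adjusted p 0.0516 to 0.191) and the second without BT-TPR2 2, BT-TPR1 2 or 3, BT-TR2 2, BT-TR1 2, both antibodies 1, 2 or 3, trastuzumab 1, 2 or 3 or untreated 1 or 3 (adjusted p 0.0509 to 0.222). Without untreated 1 the change with both antibodies was -0.66, and after the GC correction it was -0.58 (adjusted p = 0.000365). BT-TR1 had 30, 25.3 and 17 CPM, below all untreated libraries (change -1.39 ± 0.33, adjusted p = 0.0027), which became -0.30 (adjusted p = 0.0298) after the GC correction. The libraries of BT-TR2 had 62.6, 36.1 and 33.3 CPM, those of BT-TPR1 58.2, 35.9 and 35.9, and those of BT-TPR2 61.9, 42.5 and 29.9, so these pools overlapped untreated cells. Their changes of -0.54, -0.56 and -0.51 were not called, but were with the replicate block (adjusted p = 0.00233, 0.00205 and 0.00273). After GC correction the changes in BT-TR2 and BT-TPR1 were smaller, at -0.27 and -0.28 (adjusted p = 0.0393 and 0.0361).

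Of the 4 genes from isoprenoid units to squalene epoxide, 3 fell in the treated cells. IDI1, the isomerase of isopentenyl diphosphate, was the exception, at 131 ± 17.3 CPM in untreated cells and 113 ± 12.1 and 134 ± 13.5 in the treated ones. It was higher in BT-TR1 at 225 ± 38.7 CPM (change 0.78 ± 0.17, edgeR adjusted p = 0.00138). In BT-TR2 its change of 0.34 was not called, but was with the replicate block (adjusted p = 0.00304) and after GC correction (adjusted p = 0.0122). FDPS, the farnesyl diphosphate synthase, changed by -0.47 and -0.43 in the treatments (adjusted p = 0.0306 and 0.0349). The first call ended without untreated 1, 2 or 3 or trastuzumab 1 or 3 (adjusted p 0.0502 to 0.141) and the second without untreated 1, 2 or 3 or both antibodies 2 or 3 (adjusted p 0.0553 to 0.17). Its row holds 54.6% of the counts of FDPS and its named pseudogenes, and with these summed the change with both antibodies was -0.34 ± 0.11 (adjusted p = 0.0578). FDPS was also lower in BT-TPR1 (-0.43, adjusted p = 0.0173), a call that ended without untreated 2 or BT-TPR1 2 (adjusted p 0.0728 to 0.0771). FDFT1, the squalene synthase, changed least among those called in all 6 comparisons. Its changes were -0.45 and -0.52 in the treated cells and between -0.33 and -0.25 in the pools (edgeR adjusted p from 0.00108 to 0.0456). Its calls in the pools ended when libraries were left out: in BT-TR1 without untreated 1 or 3, trastuzumab 2, BT-TR1 1, 2 or 3, BT-TR2 2 or 3 or BT-TPR1 1 (adjusted p 0.0509 to 0.198), for BT-TR2 without BT-TPR2 1 or 3, BT-TPR1 3, BT-TR2 1, 2 or 3, BT-TR1 1, 2 or 3, both antibodies 2, trastuzumab 2 or untreated 1, 2 or 3 (adjusted p 0.0509 to 0.126), for BT-TPR1 without untreated 1 or BT-TPR1 2 (adjusted p 0.0586 to 0.0619), and for BT-TPR2 without untreated 1 or BT-TPR2 2 (adjusted p 0.0608 to 0.0642).

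SQLE, the squalene epoxidase, is a rate-limiting enzyme of sterol synthesis. It stood at 353, 423 and 394 CPM in the untreated libraries, against 236, 207 and 195 under trastuzumab, and 239, 208 and 199.9 under both antibodies. The pools other than BT-TR1 had 218, 229 and 249 CPM for BT-TR2, 206, 202 and 255 for BT-TPR1, and 199, 183 and 219 for BT-TPR2. All of these libraries were below all untreated ones, whereas BT-TR1, at 302, 377 and 389 CPM, overlapped them. The changes were -0.88 ± 0.12, -0.86 ± 0.12, -0.75 ± 0.12, -0.82 ± 0.12 and -0.96 ± 0.12 (edgeR adjusted p from 1.12e-05 to 0.000229), and -0.13 ± 0.12 in BT-TR1 (adjusted p = 0.403). Each of the 5 calls held in all 31 alternative analyses, which changed 1 setting or left out 1 library.

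Of the 9 genes from LSS, which makes lanosterol, to cholesterol, none was called higher in any comparison with untreated cells. The largest positive change, not called, was that of HSD17B7 in BT-TR1 (0.21). LSS, which cyclises squalene epoxide to lanosterol, had 9.72, 6.67 and 5.76 CPM in the untreated libraries, 3.65, 5.86 and 4.05 under trastuzumab, and 4.01, 5.09 and 2.97 under both antibodies. Trastuzumab 2 overlapped the untreated range. The changes were -0.70 ± 0.27 (edgeR adjusted p = 0.12, or 0.0106 with the replicate block) and -0.87 ± 0.27 (adjusted p = 0.039), the latter ending without untreated 1 or 2, both antibodies 1 or 3 or BT-TR2 2 (adjusted p 0.0511 to 0.191). In BT-TR1 the libraries had 3.04, 2.0 and 1.45 CPM, BT-TR2 came to 3.96, 3.4 and 2.57, BT-TPR1 to 5.98, 3.52 and 4.36 and BT-TPR2 to 3.32, 3.21 and 2.51. LSS was below all untreated libraries in every pool but BT-TPR1 (changes -1.71 ± 0.30, -1.15 ± 0.28 and -1.28 ± 0.28, adjusted p = 0.000262, 0.00495 and 0.00165). In BT-TPR1 its change of -0.67 was not called, but was with the replicate block (adjusted p = 0.00708) and after GC correction (-0.55, adjusted p = 0.0319).

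CYP51A1, the lanosterol demethylase, showed the largest changes of the branch in its own row. It had 12.5, 10.6 and 5.08 CPM in untreated cells, 1.74, 2.0 and 1.93 under trastuzumab, 3.46, 2.03 and 1.27 under both antibodies and 2.0, 1.13 and 0.528 in BT-TR1. The other pools had 5.34, 2.06 and 1.8 (BT-TR2), 5.81, 1.95 and 2.12 (BT-TPR1) and 3.43, 1.44 and 1.32 (BT-TPR2) CPM, and replicate 1 of BT-TR2 and BT-TPR1 overlapped untreated cells. The changes ran from -1.50 ± 0.49 in BT-TPR1 to -2.83 ± 0.57 in BT-TR1 (edgeR adjusted p from 0.000813 to 0.0277). The row is not a full measure of the gene. It holds 6.16% of the counts of CYP51A1 and its named pseudogenes, against 38.6% for CYP51A1P1 and 55.3% for CYP51A1P2, and 83.2% of its exon bases are shared with other annotated genes. Summed with the pseudogenes, the level was 89.1 ± 9.45 CPM in untreated cells, 47.5 ± 4.9 and 49.6 ± 3.85 in the treated ones, 70.6 ± 6.02 for BT-TR1, 54.3 ± 3.58 for BT-TR2, 46.2 ± 5.43 for BT-TPR1 and 39.6 ± 3.89 for BT-TPR2. The summed changes were -0.89 ± 0.12 and -0.83 ± 0.12 with trastuzumab and both antibodies, and -0.31 ± 0.12, -0.70 ± 0.12, -0.92 ± 0.12 and -1.15 ± 0.12 in the pools in the same order (adjusted p = 0.041 in BT-TR1, and 0.000129, 0.000111, 0.00026, 1.47e-05 and 7.93e-07 in the others). So the direction was the same in all 6 comparisons, but the pool with the largest change was BT-TR1 by the gene row and BT-TPR2 by the sum. Calls from the gene row ended without both antibodies 3 (adjusted p 0.0676) for both antibodies, without untreated 1 or 2 or BT-TR2 2 or 3 (adjusted p 0.061 to 0.0919) for BT-TR2 and without untreated 1 or 2 or BT-TPR1 2 or 3 (adjusted p 0.0768 to 0.124) for BT-TPR1.

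TM7SF2, a sterol reductase, had 509, 275 and 305 CPM in the untreated libraries, 300.4, 221 and 186 under trastuzumab, and 252, 197 and 139 under both antibodies. It reached only 162, 147 and 103 CPM for BT-TR1, 255, 154 and 163 for BT-TR2, 181, 120.2 and 132 for BT-TPR1 and 195, 112 and 108 for BT-TPR2. All pool libraries lay below all untreated ones, and replicate 1 was the highest of every group. Trastuzumab 1 overlapped the untreated range. In the treated cells the changes were -0.62 ± 0.29 and -0.89 ± 0.29 (edgeR adjusted p = 0.217 and 0.0559). With the replicate block the change with trastuzumab was called (adjusted p = 0.000446). After GC correction the change with both antibodies was -0.43 (adjusted p = 0.00432). With the block added to the correction, that with trastuzumab was -0.26 (adjusted p = 0.0301). The pools changed by -1.40 ± 0.30, -0.93 ± 0.29, -1.33 ± 0.30 and -1.39 ± 0.30 (adjusted p = 0.00131, 0.0272, 0.00277 and 0.00159). The BT-TR2 call ended without untreated 1 or BT-TR2 2 or 3 (adjusted p 0.0983 to 0.156), with a change of -0.60 without untreated 1, and in BT-TR1 the change after GC correction was -0.23 (adjusted p = 0.0742).

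DHCR7 is the reductase of 7-dehydrocholesterol. Its libraries had 525, 268 and 318 CPM in untreated cells, 272, 209 and 171 under trastuzumab, and 294, 193 and 149.8 under both antibodies. The treated groups overlapped untreated cells through their replicate 1, and the changes were -0.77 ± 0.30 and -0.80 ± 0.30 (edgeR adjusted p = 0.126 and 0.0826), the former being called with the replicate block (adjusted p = 9.27e-05). After GC correction both were called, at -0.66 and -0.65 (adjusted p = 0.00515 and 0.00394). In the pools DHCR7 had 209, 163 and 129 CPM for BT-TR1, 249, 157 and 184 for BT-TR2, 235, 138 and 186 for BT-TPR1 and 258, 151 and 163 for BT-TPR2, all below untreated cells. It changed by -1.15 ± 0.30, -0.91 ± 0.30, -0.99 ± 0.30 and -0.96 ± 0.30 (adjusted p from 0.00521 to 0.0304). The calls ended without untreated 1 or BT-TR2 2 or 3 (adjusted p 0.0905 to 0.178) in BT-TR2, without untreated 1 or BT-TPR1 2 or 3 (adjusted p 0.0517 to 0.132) in BT-TPR1 and without untreated 1 or BT-TPR2 2 or 3 (adjusted p 0.0809 to 0.141) in BT-TPR2. Without untreated 1 the changes in these pools were -0.57, -0.63 and -0.60, and in BT-TR1 the change after GC correction was -0.57 (adjusted p = 0.0057).

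SC5D, the lathosterol desaturase, had its lowest levels in 3 of the pools. It had 87.9, 119 and 85.4 CPM in untreated cells, 76.3, 71 and 67.4 under trastuzumab, 76.3, 69.3 and 72.1 under both antibodies and 80.8, 94.8 and 96.1 in BT-TR1. The other pools had 55, 55 and 62.3 CPM for BT-TR2, 48.7, 51.9 and 56.1 for BT-TPR1, and 53.8, 43.6 and 56.8 for BT-TPR2. BT-TR1 overlapped untreated cells (change -0.38, edgeR adjusted p = 0.0204, after GC correction), and all other groups lay below them. The changes were -0.76 ± 0.13, -0.90 ± 0.13 and -0.92 ± 0.13 in these 3 pools (edgeR adjusted p = 0.000252, 4.4e-05 and 2.46e-05), calls that held in every alternative. In the treated cells the changes of -0.44 and -0.42 (adjusted p = 0.0379 and 0.0335) were less firm: the first call ended without untreated 2, trastuzumab 1, 2 or 3, both antibodies 1, BT-TR1 2 or 3, BT-TR2 2 or BT-TPR1 2 (adjusted p 0.05 to 0.235) and the second without untreated 2, trastuzumab 2, both antibodies 1, 2 or 3 or BT-TR1 2 (adjusted p 0.0504 to 0.219), with values of -0.26 and -0.24 without untreated 2.

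The other genes of this stretch moved less. MSMO1, the C4 sterol methyl oxidase, was at 181 ± 44.4 CPM in untreated cells and changed by -0.84 and -0.63 in the treatments (edgeR adjusted p = 0.00469 and 0.0203). It was also lower in BT-TR2 (-0.51, adjusted p = 0.0329) and BT-TPR1 (-0.70, adjusted p = 0.00512), and was called in BT-TPR2 with the replicate block (adjusted p = 0.0167). The MSMO1 calls ended without untreated 2 or 3 or both antibodies 2 or 3 (adjusted p 0.053 to 0.134) for both antibodies, without untreated 2 or 3 or BT-TR2 1 or 2 (adjusted p 0.0724 to 0.214) for BT-TR2 and without untreated 2 (adjusted p 0.0551) for BT-TPR1, and without untreated 2 the BT-TR2 change was -0.32. HSD17B7, a keto-reductase of the same complex, changed by -0.47 and -0.53 (adjusted p = 0.0133 and 0.0038), the first ending without untreated 3 or trastuzumab 2 or 3 (adjusted p 0.0538 to 0.0773). In BT-TPR1 its change was -0.33 (adjusted p = 0.0323), which ended without untreated 1, 2 or 3, trastuzumab 2, BT-TR1 1, 2 or 3 or BT-TPR1 1 or 2 (adjusted p 0.0505 to 0.132). NSDHL, the decarboxylating dehydrogenase, was called in every pool but BT-TPR1 (-0.53, -0.47 and -0.48, adjusted p = 0.012, 0.036 and 0.0261). These ended without untreated 1 or BT-TR1 2 or 3 (adjusted p 0.0515 to 0.0837), without untreated 1 or BT-TR2 2 or 3 (adjusted p 0.112 to 0.155) and without untreated 1 or BT-TPR2 2 or 3 (adjusted p 0.0671 to 0.14) respectively. NSDHL was called with trastuzumab and in BT-TPR1 under the replicate block (adjusted p = 0.000921 and 0.00185). EBP, the sterol isomerase, was called in BT-TPR1 alone (-0.78, adjusted p = 0.0456), ending without BT-TPR2 3, BT-TPR1 2 or 3, BT-TR2 3, BT-TR1 1, 2 or 3, both antibodies 2, trastuzumab 2 or untreated 1 or 2 (adjusted p 0.0508 to 0.225), with -0.51 without untreated 1. Under the block EBP was called with trastuzumab and in BT-TR1 as well (adjusted p = 0.00218 and 0.00203).

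Among the sensors, INSIG1 (chr7:155297776-155310235, + strand, GENCODE 29 on hg38), the anchor of the SREBP precursors and itself an SREBP target, stood at 323, 357 and 315 CPM in the untreated libraries, 209.8, 186 and 171 under trastuzumab, and 259, 234 and 209 under both antibodies. It had 192, 207 and 215 CPM for BT-TR2, 184.5, 195 and 215 for BT-TPR1, and 212, 200.1 and 223 for BT-TPR2, all below all untreated libraries. BT-TR1, at 256, 314 and 321 CPM, overlapped them. The changes were -0.81 ± 0.11, -0.50 ± 0.11, -0.70 ± 0.11, -0.74 ± 0.11 and -0.65 ± 0.11 (edgeR adjusted p = 0.000163, 0.00518, 0.00015, 7.22e-05 and 0.000217). In BT-TR1 the change was -0.16 ± 0.11 (adjusted p = 0.249), or -0.24 (adjusted p = 0.0425) with GC correction and the replicate block. The call with both antibodies ended when only those 6 libraries were fitted (adjusted p = 0.0672), and the other 4 held in every alternative.

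SREBF2 had 616, 382 and 429 CPM in untreated cells, 329, 296 and 247 under trastuzumab, and 349.6, 251 and 207 under both antibodies. All treated libraries were below all untreated ones. The changes were -0.71 ± 0.23 (edgeR adjusted p = 0.0624, or 6.35e-05 with the replicate block) and -0.82 ± 0.23 (adjusted p = 0.0228, ending without untreated 1 or both antibodies 2 or 3, adjusted p 0.0832 to 0.131). The pools had 296, 276 and 227 CPM for BT-TR1, 398, 272 and 303 for BT-TR2, 395, 269 and 331 for BT-TPR1 and 438, 276 and 291 for BT-TPR2. SREBF2 was below the untreated range in BT-TR1 (-0.84 ± 0.23, adjusted p = 0.00671, ending without untreated 1, adjusted p 0.0579), where the GC-corrected change was -0.37 (adjusted p = 0.0121). The other pools overlapped it, with changes of -0.55, -0.52 and -0.51 that were not called. They were called with the block (adjusted p = 0.000304, 0.000548 and 0.000452), and after GC correction at -0.52, -0.41 and -0.40.

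STARD4 (chr5:111496033-111512590, - strand), a carrier that moves cholesterol between membranes, changed direction between treatment and BT-TR1. It had 12.6, 18.5 and 12.3 CPM in untreated cells, 6.62, 7.48 and 8.01 under trastuzumab, and 8.9, 9.79 and 7.25 under both antibodies. In BT-TR1 it had 36.3, 43.9 and 49.5 CPM, BT-TR2 came to 16.4, 21.7 and 21.5, BT-TPR1 to 12.2, 13.2 and 13.1 and BT-TPR2 to 14.6, 18.9 and 16.2. All treated libraries lay below and all BT-TR1 libraries above all untreated ones, while the other pools overlapped them. The changes were -0.97 ± 0.18, -0.74 ± 0.17 and, in BT-TR1, 1.58 ± 0.17 (edgeR adjusted p = 0.00191, 0.0085 and 1.64e-06). The call with both antibodies ended without untreated 2 or both antibodies 3 (adjusted p 0.0622 to 0.0755), and the other calls held in every alternative. In BT-TR2 the change of 0.46 ± 0.17 missed the threshold (adjusted p = 0.0538) and passed with the replicate block (adjusted p = 0.0037).

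**Figure D3:**
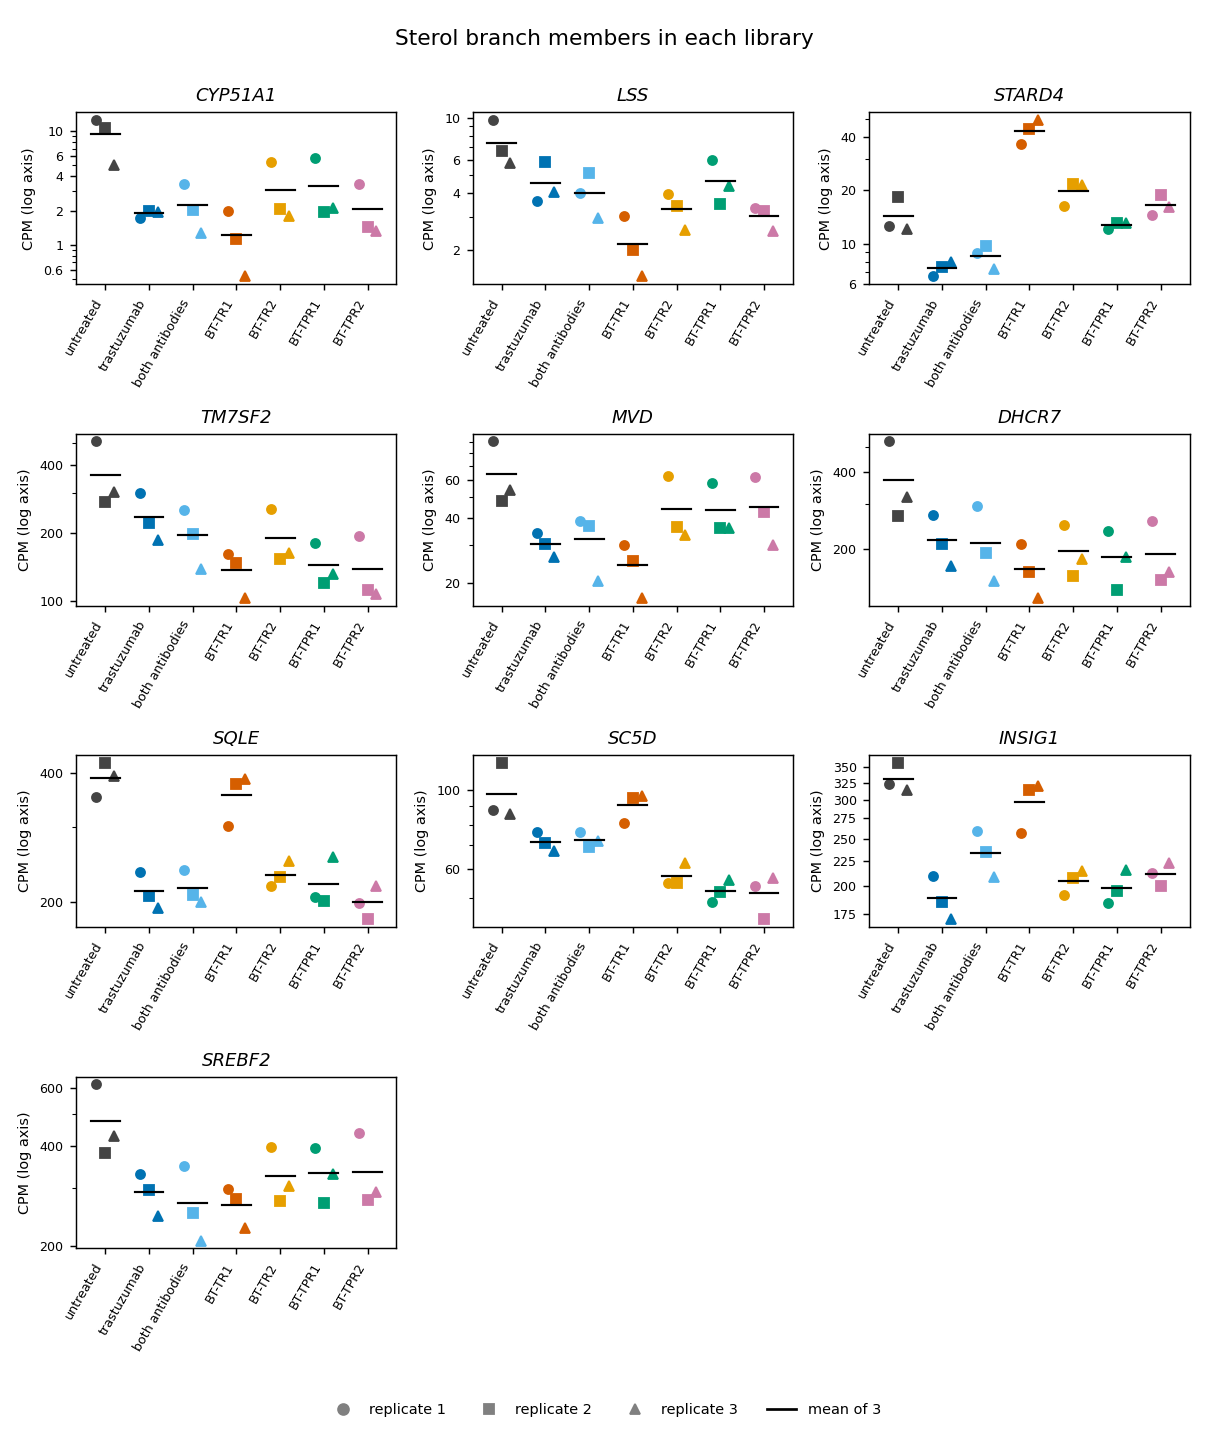
Level of 10 sterol members in each library, in CPM on a log axis whose range differs between panels, by group. Symbols are replicate numbers and bars the means of 3 libraries. SQLE, INSIG1 and SC5D in BT-TR1 sit at the untreated level and below it in the other 5 groups, while STARD4 is highest in BT-TR1 (36.3 to 49.5 CPM).

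In the fatty acid branch the regulator SREBF1 had 362, 182 and 188 CPM in untreated cells, 188, 138 and 121 under trastuzumab, and 201, 129 and 95.6 under both antibodies. Replicate 1 was the highest of every group, and the treated groups overlapped untreated cells. The changes were -0.71 ± 0.38 and -0.78 ± 0.38 (edgeR adjusted p = 0.28 and 0.192), and with the replicate block the former was called (adjusted p = 0.000245). The pools had 97.4, 72.6 and 54.9 CPM for BT-TR1, 203, 96.4 and 104 for BT-TR2, 196, 103 and 119.8 for BT-TPR1 and 224, 102 and 101 for BT-TPR2. BT-TR1 lay below all untreated libraries (-1.70 ± 0.39, adjusted p = 0.00223, and -0.68, adjusted p = 0.00195 after GC correction). In the other pools the changes of -0.86, -0.81 and -0.78 were not called. They were called with the block (adjusted p = 3.03e-06, 1.03e-05 and 5.68e-06), and after GC correction at -0.64, -0.55 and -0.45.

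Of the 3 genes that supply acetyl-CoA and NADPH, 2 were higher in pools. ACLY, which cleaves citrate to acetyl-CoA, changed by -0.36 and -0.33 in the treatments (edgeR adjusted p = 0.0345 and 0.036), calls that ended without untreated 1 or 3 or trastuzumab 1 or 3 (adjusted p 0.08 to 0.123) and without untreated 1 or 3, both antibodies 1, 2 or 3 or BT-TR1 2 (adjusted p 0.0527 to 0.184). In the pools its changes lay between -0.16 and 0.05 and were not called. ACSS2 (chr20:34872146-34927962, + strand), which makes acetyl-CoA from acetate, was chosen for full values after they were seen. It had 179, 125 and 155 CPM in untreated cells, 205, 168 and 162 under trastuzumab, and 222, 171 and 176 under both antibodies, which overlapped. All pool libraries lay above all untreated ones, at 335, 268 and 264 for BT-TR1, 246, 231 and 222 for BT-TR2, 260, 210 and 275 for BT-TPR1 and 304, 272 and 263 for BT-TPR2. The increases were 0.92 ± 0.15, 0.61 ± 0.15, 0.70 ± 0.15 and 0.87 ± 0.15 (adjusted p from 0.000105 to 0.00507), and the 4 calls held in every alternative.

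ME1 (chr6:83210389-83431071, - strand), the cytosolic malic enzyme that yields NADPH, was higher in both trastuzumab-resistant pools. It had 8.52, 11.6 and 9.3 CPM in untreated cells, 7.18, 7.28 and 7.68 under trastuzumab, and 7.64, 7.66 and 8.66 under both antibodies. The pools had 31.1, 30.3 and 35.6 CPM for BT-TR1, 25, 28.8 and 26.6 for BT-TR2, 12.1, 13.7 and 12.8 for BT-TPR1 and 8.9, 13.8 and 13.5 for BT-TPR2. Every BT-TR1 and BT-TR2 library exceeded every library of the other 5 groups, with changes of 1.72 ± 0.15 and 1.45 ± 0.15 from untreated cells (edgeR adjusted p = 1.02e-07 and 1.12e-06) that held in every alternative. In BT-TPR1 and BT-TPR2 the changes of 0.39 and 0.30 (adjusted p = 0.0609 and 0.134) were called with the replicate block (adjusted p = 0.00966 and 0.0421). With trastuzumab the change of -0.41 (adjusted p = 0.116) was called under the block (adjusted p = 0.0204) and after GC correction (adjusted p = 0.0156).

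For palmitate synthesis, ACACA, the acetyl-CoA carboxylase, was listed at 0.714, 0.517 and 0.771 CPM in untreated cells and 0.345, 0.126 and 0.192 CPM for BT-TPR1. For BT-TPR2 it was listed at 0.116, 0.14 and 0.0627 CPM, and both pools lay below the untreated range. The treated cells were also below it, at 0.28, 0.489 and 0.283 CPM with trastuzumab and 0.385, 0.494 and 0.341 with both antibodies, but their changes of -0.91 and -0.71 were not called. The other pools had 0.297, 0.609 and 0.264 (BT-TR1) and 0.66, 0.309 and 0.128 (BT-TR2) CPM. The changes in BT-TPR1 and BT-TPR2 were -1.55 ± 0.46 and -2.54 ± 0.52 (edgeR adjusted p = 0.0183 and 0.00112), and the first ended without untreated 3 or BT-TPR1 2 or 3 (adjusted p 0.0566 to 0.0954) and in DESeq2 (adjusted p = 0.0566). On the deposited transformed values they were -0.69 and -0.97. The counts behind these values are the lowest of all members.

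FASN, the fatty acid synthase, had 2161, 985 and 998 CPM in untreated cells, 639.8, 689.5 and 581 under trastuzumab, and 893, 756 and 422 under both antibodies. All treated libraries were below all untreated ones. Untreated 1 was far above the other untreated libraries, and the changes of -1.12 ± 0.45 and -1.0 ± 0.45 were not called (edgeR adjusted p = 0.141 and 0.151). With the replicate block the change with trastuzumab was -0.97 (adjusted p = 0.00057), and after GC correction it was -0.64 (adjusted p = 0.0129). With correction and block together it was -0.61. The change with both antibodies was then -0.45, though same-numbered libraries did not pair in that comparison. The pools had 656, 436 and 272 CPM for BT-TR1, 1642, 681 and 704 for BT-TR2, 1660, 758 and 746 for BT-TPR1 and 1325, 741 and 489.5 for BT-TPR2. FASN changed in BT-TR1 by -1.60 ± 0.45 (adjusted p = 0.00846), a call that ended without untreated 1 or BT-TR1 3 (adjusted p 0.0517 to 0.0686) and with the GC correction (-0.32, adjusted p = 0.135). All BT-TR1 libraries were below the untreated ones, and the other pools overlapped them. Changes in the other pools were -0.45, -0.39 and -0.70 and were not called, except with the block in BT-TR2 and BT-TPR2 (adjusted p = 0.0436 and 0.00279).

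The elongases and desaturases included members lower in all or nearly all groups. ELOVL6 (chr4:110045846-110199199, - strand), which extends palmitate to stearate, had 82.6, 108 and 87.3 CPM in untreated cells, 46.6, 42.9 and 44.1 under trastuzumab, and 51.2, 43.2 and 43.3 under both antibodies. It had 73.9, 92.2 and 97 CPM for BT-TR1, 56.6, 61.5 and 64.1 for BT-TR2, 26.7, 28.3 and 33.1 for BT-TPR1 and 32.5, 30.2 and 39.7 for BT-TPR2. All groups but BT-TR1 lay below untreated cells without overlap. The changes were -1.06 ± 0.13 and -1.01 ± 0.13 in the treatments, -0.61 ± 0.13 in BT-TR2, and -1.66 ± 0.14 and -1.44 ± 0.13 in BT-TPR1 and BT-TPR2 (edgeR adjusted p from 5.54e-08 to 0.00239), all 5 holding in every alternative. In BT-TR1 the change was -0.08 ± 0.13 (adjusted p = 0.651), or -0.32 (adjusted p = 0.0307) after GC correction.

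FADS1 and FADS2 are the delta-5 and delta-6 desaturases of polyunsaturated fatty acids, and their exons overlap on opposite strands over a small part. FADS1 had 386, 416 and 370 CPM in untreated cells, 234, 217 and 180 under trastuzumab, and 217, 173 and 163 under both antibodies. In the pools it had 277, 312 and 303 CPM for BT-TR1, 234, 226 and 249 for BT-TR2, 132, 129 and 159 for BT-TPR1 and 192, 157 and 193 for BT-TPR2. Every library of the other 6 groups was below every untreated library. The changes were -0.89 ± 0.13, -1.08 ± 0.13, -0.40 ± 0.13, -0.73 ± 0.13, -1.48 ± 0.13 and -1.12 ± 0.13 (edgeR adjusted p from 1.04e-07 to 0.0166). The BT-TR1 call ended without untreated 2 or BT-TR1 1 or 3 (adjusted p 0.051 to 0.0799), and the other 5 held. FADS2 was at 1727 ± 434 CPM in untreated cells and changed by -0.70 to -0.95 in all 6 groups (adjusted p from 0.00675 to 0.0455). The BT-TPR2 call held, and the others ended: without untreated 1 or 3, trastuzumab 2 or 3, both antibodies 2, BT-TR1 2, BT-TR2 3 or BT-TPR1 3 (adjusted p 0.0527 to 0.185) with trastuzumab, without untreated 1 or both antibodies 2 or 3 (adjusted p 0.0834 to 0.132) with both, without untreated 1 (adjusted p 0.0513) in BT-TR1, without untreated 1 or 3, trastuzumab 2, both antibodies 2, BT-TR1 2, BT-TR2 2 or 3, BT-TPR1 3 or BT-TPR2 3 (adjusted p 0.0521 to 0.202) in BT-TR2 and without untreated 1 (adjusted p 0.0507) in BT-TPR1. In BT-TR1 the GC-corrected FADS2 change was -0.32 (adjusted p = 0.0527).

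ELOVL5, which elongates polyunsaturated chains, changed in BT-TR2, BT-TPR1 and BT-TPR2 by -0.97, -1.0 and -0.94 (edgeR adjusted p = 2.77e-05, 1.85e-05 and 2.65e-05). Its mean was 832 ± 98.3 CPM in untreated cells and 425 ± 26.2, 416 ± 44.7 and 434 ± 56.2 CPM in these pools. The change with both antibodies was -0.56 (adjusted p = 0.00788, ending without untreated 2 or both antibodies 2, adjusted p 0.0509 to 0.0533), and in BT-TR1 -0.42 (adjusted p = 0.0138, ending without untreated 2 or BT-TR1 1, adjusted p 0.0899 to 0.096). With trastuzumab the change of -0.39 was not called, but was under the block (adjusted p = 0.0107) and in DESeq2 (adjusted p = 0.0474). ACSL3, which activates fatty acids for lipid droplets, changed by -0.64 with trastuzumab (adjusted p = 0.0205, ending without untreated 2 or trastuzumab 1, 2 or 3, adjusted p 0.0565 to 0.131) and was higher by 0.51 in BT-TR1 (adjusted p = 0.0165, ending without untreated 1 or 3 or BT-TR1 3, adjusted p 0.0538 to 0.084 and with the GC correction).

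SCD (chr10:100347124-100364834, + strand), the stearoyl-CoA desaturase and the most abundant member, was chosen for full values after they were seen. It had 2538, 2574 and 2673 CPM in untreated cells, 1492, 1471 and 1151 under trastuzumab, and 1971, 1473 and 1420 under both antibodies. In BT-TR1 it had 4039, 4669 and 4411 CPM, above all untreated libraries, while all treated libraries were below them. The other pools had 2711, 2655 and 3027 CPM for BT-TR2, 2040, 1874 and 2607 for BT-TPR1, and 2776, 2374 and 2616 for BT-TPR2 and overlapped untreated cells. The changes were -0.92 ± 0.14 and -0.68 ± 0.14 in the treatments and 0.75 ± 0.14 in BT-TR1 (edgeR adjusted p = 0.000534, 0.00386 and 0.000525), all 3 holding in every alternative.

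**Figure D4:**
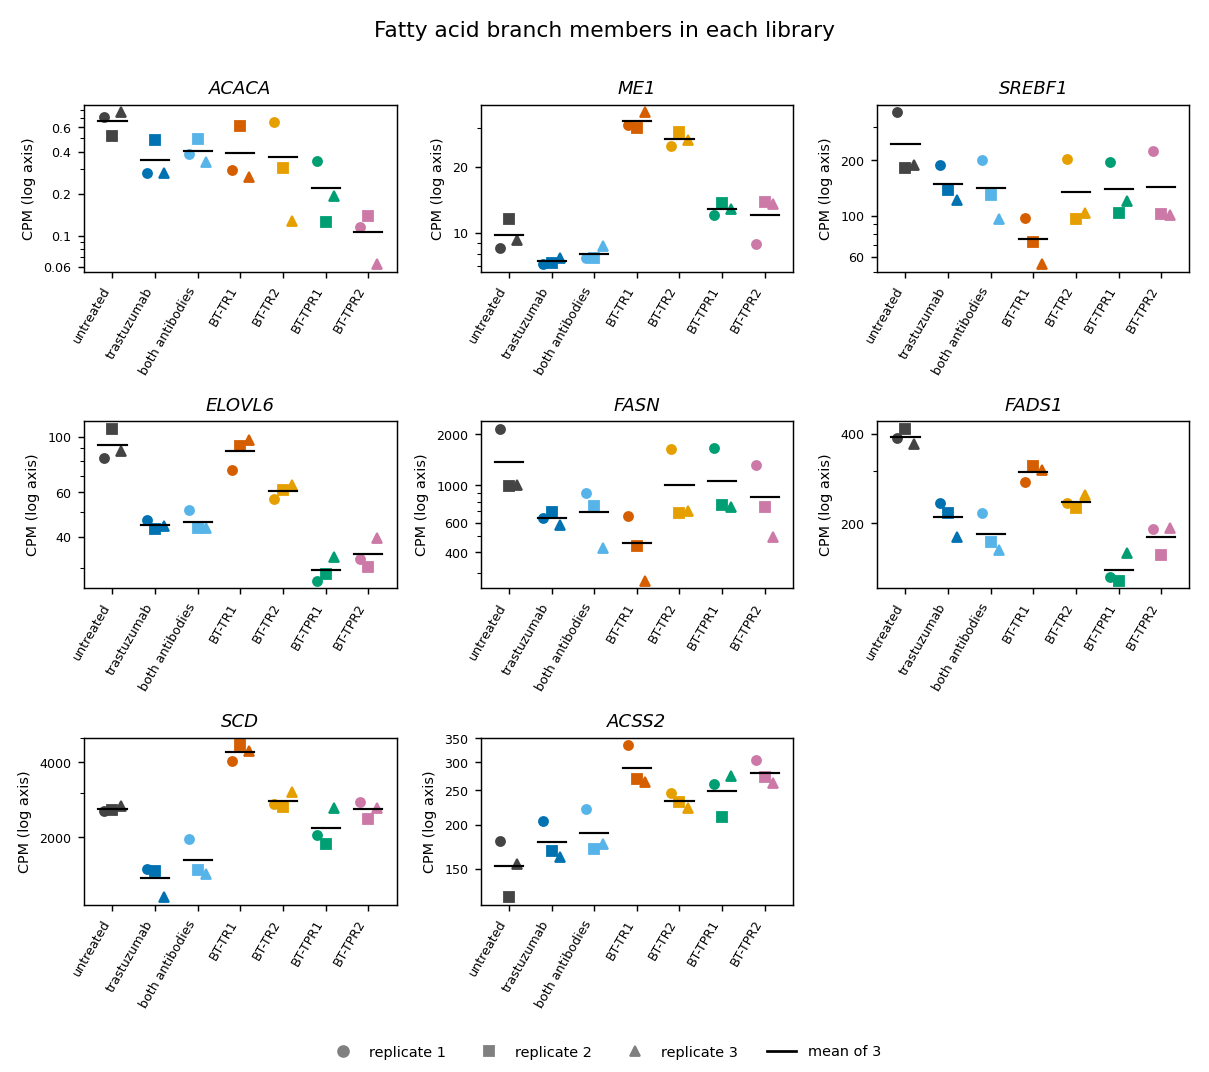
Level of 8 fatty acid members in each library, in CPM on a log axis whose range differs between panels, by group. Symbols are replicate numbers and bars the means of 3 libraries. ELOVL6 and FADS1 are lowest in BT-TPR1 (26.7 to 33.1 and 129 to 159 CPM), ME1 stands out in BT-TR1 and BT-TR2, and replicate 1 is the highest FASN value of every group but trastuzumab.

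The pools, taken as the mean of 2, were also set beside the cells treated with the antibody they resist. Relative to trastuzumab-treated cells, the mean of BT-TR1 and BT-TR2 had 9 sterol and 7 fatty acid members higher and 2 and 1 lower, beside 17.6% and 17.2% of all genes. STARD4 (1.99 ± 0.16, edgeR adjusted p = 2.59e-08), ME1 (1.99 ± 0.14, adjusted p = 3.34e-09) and SCD (1.35 ± 0.13, adjusted p = 2.46e-07) differed most. Relative to cells given both antibodies, the mean of BT-TPR1 and BT-TPR2 had 3 sterol and 4 fatty acid members higher and 1 and 3 lower, beside 15.1% and 17.7% of all genes. The sterol members higher were STARD4 (0.75), ACAT2 (0.47) and HSD17B7 (0.38), and SC5D was lower (-0.49). Under the replicate block 6 sterol members were higher and 2 lower, beside 25.6% and 24.8% of all genes. The fatty acid members lower were ACACA (-1.33), ELOVL6 (-0.54) and ELOVL5 (-0.41). On the deposited transformed values the ACACA difference was -0.50, and with pseudogenes summed that of HSD17B7 was 0.23 (adjusted p = 0.0567). Without BT-TPR2 1 there were 2 sterol members lower. The ACACA call ended without both antibodies 1 or 2, BT-TPR1 2 or BT-TPR2 3 (adjusted p 0.0541 to 0.114) and the ELOVL5 call without both antibodies 1 (adjusted p 0.0705), so 1 fatty acid member was left lower without both antibodies 1. In the comparison with trastuzumab, the members lower were LSS, PMVK and ELOVL5 (-0.73, -0.37 and -0.30), and these calls ended without trastuzumab 2, BT-TR1 2 or 3 or BT-TR2 3 (adjusted p 0.0554 to 0.187), without BT-TPR2 2 or 3, BT-TPR1 2 or 3, BT-TR2 2 or 3, BT-TR1 2 or 3, both antibodies 1, 2 or 3, trastuzumab 1, 2 or 3 or untreated 3 (adjusted p 0.0504 to 0.161) and without trastuzumab 1, 2 or 3, BT-TR1 1 or 2, BT-TR2 1 or 2 or BT-TPR1 1 (adjusted p 0.0522 to 0.241) respectively. With replicates 2 and 3 alone the LSS and ELOVL5 differences were -1.11 and -0.18, and after GC correction that of PMVK was -0.14.

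The 2 trastuzumab-resistant pools differed from each other. Between BT-TR2 and BT-TR1, 6 sterol and 4 fatty acid members were lower in BT-TR2 and 1, PMVK, was higher, beside 8.09% lower and 9.64% higher of all genes. Among the called members STARD4 differed most (-1.12 ± 0.17, edgeR adjusted p = 0.000848), followed by PMVK (0.87 ± 0.17, adjusted p = 0.00446) and SC5D (-0.66 ± 0.13, adjusted p = 0.00427). After the GC correction PMVK (0.31), MSMO1 (-0.34), SC5D (-0.36), ELOVL5 (-0.33), ELOVL6 (-0.30) and ACSL3 (-0.17) were no longer called, and HMGCS1 was reduced to -0.30. Without BT-TR2 1 no fatty acid member was called lower, without BT-TR1 2 and BT-TR1 3 there were 2 and 1, and without BT-TR1 1 one was called higher. Between BT-TPR2 and BT-TPR1, 0 of 34 members were called by edgeR, where 3.45% of all genes were. With the replicate block 3 members were called higher in BT-TPR2, HSD17B7 by 0.37 (adjusted p = 0.0146), EBP by 0.58 (adjusted p = 0.00229) and FADS1 by 0.37 (adjusted p = 0.033), where 5.85% of all genes were, and DESeq2 called 1 sterol member.

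The change in BT-TR1 varied with the base composition of the genes. Across the 34 members the change from untreated cells correlated with the GC content of the exons at r = -0.597, and across 17554 genes at r = -0.478. Both describe genes measured in the same 6 libraries. For BT-TR2 against BT-TR1 the values were 0.752 and 0.629, and for the other comparisons with untreated cells those over members lay between -0.228 and 0.121. After each library was corrected for GC content, r over members was -0.166 in BT-TR1. The corrected changes kept STARD4 (1.31), ME1 (1.46), ACSS2 (1.19), SCD (0.70) and IDI1 (0.53) higher and LSS (-1.19), SREBF1 (-0.68), DHCR7 (-0.57) and MVD (-0.30) lower, each still called. GC-corrected changes of FASN (-0.32), TM7SF2 (-0.23), PMVK (-0.07), MVK (-0.22), FADS2 (-0.32) and ACSL3 (0.22) were no longer called. With the replicate block added to the correction, MVK, TM7SF2, FASN and FADS2 were called lower (adjusted p = 0.0454, 0.0411, 0.0205 and 0.0152), and PMVK and ACSL3 were not. ELOVL5 moved from -0.42 to -0.65 with the correction and SREBF2 to -0.37. SC5D (-0.38, adjusted p = 0.0204) and ELOVL6 (-0.32, adjusted p = 0.0307) became called lower. FDPS turned from -0.04 to 0.30 (adjusted p = 0.0444). Between the trastuzumab-resistant pools, TM7SF2 turned from 0.47 to -0.39 (adjusted p = 0.0199).

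**Figure D5:**
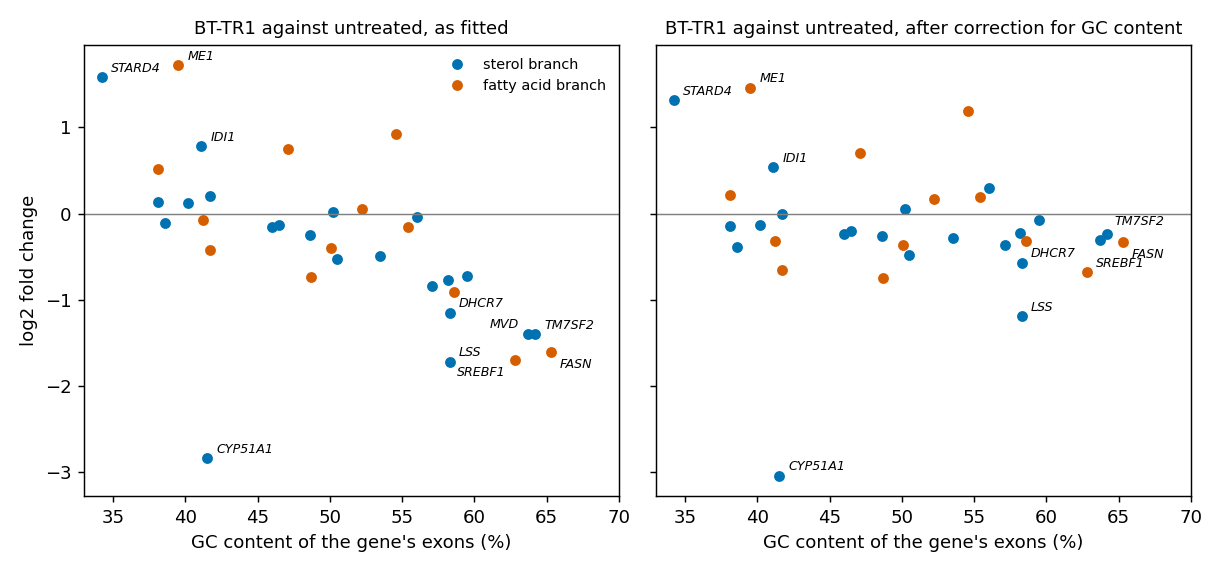
Change in BT-TR1 against untreated cells (log2 fold change) of the 34 members against the GC content of their exons in percent, as fitted (left) and with each library corrected for GC content (right). As fitted, members of higher GC content lie lower (r = -0.597), and after correction the slope is shallower (r = -0.166), with STARD4, ME1 and ACSS2 above and LSS and CYP51A1 below the other members.

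Genes around the pathway were counted in lists chosen with earlier results of these data known, and the shares of all genes are those of the same comparisons. Of 9 genes that process or degrade the SREBP machinery, 1 was lower in each treatment, ERLIN1, part of a complex for degrading sterol sensors (-0.50 ± 0.10 and -0.56 ± 0.10, edgeR adjusted p = 0.0061 and 0.0015). Both ERLIN1 calls ended when only the libraries compared were fitted (adjusted p = 0.0805 and 0.051). In the pools 6 of 9 were lower and 1 higher in BT-TR1, and 7 of 9 were lower in each of the others (22.3%, 12.1%, 14.4% and 16% of all genes lower), with a median change between -0.57 and -0.39. SCAP, the SREBP escort protein, was lower in BT-TR1 (-1.14 ± 0.34, adjusted p = 0.0111), a call that ended without untreated 1 or BT-TR1 3 (adjusted p 0.0652 to 0.091) and with the GC correction (-0.19, adjusted p = 0.271).

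Of 8 genes of cholesterol efflux and the sterol-activated receptors LXR, 2 rose with trastuzumab and 3 with both antibodies, where 3.71% and 6.39% of all genes rose, and none fell. ABCA1, the cholesterol exporter, rose from 1.37 ± 0.048 CPM in untreated cells to 3.82 ± 0.254 with trastuzumab and 6.76 ± 1.56 with both antibodies (changes 1.47 ± 0.21 and 2.29 ± 0.21, edgeR adjusted p = 0.000285 and 1.08e-06). The called synthesis genes went the other way in the same libraries. In the pools the mean of ABCA1 was between 0.948 and 1.77 CPM. Of the list, 3 genes were lower for BT-TR1 and 2 for each other pool, while BT-TR2 and BT-TPR2 each had 1 higher. APOE was lower in every pool and had the largest change of the list there. Its changes were -5.92 in BT-TR1, -5.62 in BT-TR2, -5.54 in BT-TPR1 and -5.69 in BT-TPR2 (edgeR adjusted p from 6.28e-07 to 3.24e-06). These pool counts stand beside 12.1% to 22.3% of all genes lower and 12.7% to 21.3% higher. Of 8 genes of cholesterol trafficking and esterification, none was called with trastuzumab or in BT-TR2, 1 was lower with both antibodies, 1 was lower and 1 higher in BT-TR1, and 3 were lower in each of BT-TPR1 and BT-TPR2, where 14.4% and 16% of all genes were, among them SOAT1, which esterifies cholesterol (-1.05 ± 0.15 and -0.95 ± 0.14, adjusted p = 3.1e-05 and 6.73e-05).

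Among 16 genes of fatty acid oxidation, the reverse process, 8 were higher in BT-TR1 (21.3% of all genes), 7 in BT-TR2 (12.7%), 3 in BT-TPR1 (12.9%) and 6 in BT-TPR2 (15.6%), against 1 and 2 in the treated cells (3.71% and 6.39%), and 3 at most were lower in a comparison with untreated cells. PPARA, a transcription factor of fatty acid oxidation, was at 0.599 ± 0.095 CPM in untreated cells and at 3.12 ± 0.958, 3.34 ± 0.639, 5.32 ± 0.462 and 4.96 ± 0.678 CPM in the pools (changes 2.32 ± 0.30, 2.46 ± 0.29, 3.13 ± 0.28 and 3.03 ± 0.28, edgeR adjusted p from 1.68e-07 to 1.26e-05). CPT1A of the same list was lower with trastuzumab (-0.59, adjusted p = 0.0355) and in BT-TPR1 (-0.62, adjusted p = 0.00931). Of 14 further genes of fatty acid synthesis, 12 were tested, and 2 at most were higher and 4 at most lower in 1 comparison with untreated cells, both in BT-TR1, where 21.3% and 22.3% of all genes were. ACSL4, an acyl-CoA synthetase for arachidonate, was higher in BT-TR1 (2.68 ± 0.32, adjusted p = 4.35e-06), at 4.25 ± 0.347 against 0.66 ± 0.236 CPM. THRSP, a lipogenic nuclear protein, was higher in BT-TPR1 and BT-TPR2 (1.65 ± 0.28 and 2.18 ± 0.27, adjusted p = 0.000236 and 5.8e-06) at 1.59 ± 0.177 and 2.3 ± 0.378 CPM, against 0.50 ± 0.0544 CPM in untreated cells. Of 13 genes of glycerolipid synthesis and lipid droplets, 6 at most were called in a comparison with untreated cells, 2 higher and 4 lower in BT-TR1, beside 21.3% and 22.3% of all genes. MGLL, the monoacylglycerol lipase, was higher in BT-TR2 and BT-TPR2 (0.97 ± 0.13 and 0.91 ± 0.13, adjusted p = 3.75e-05 and 4.66e-05).

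Proliferation genes moved with the acute decline of the members. Of 10 such genes, 9 fell in each treatment, where 3.78% and 6.02% of all genes fell, with a median change of -0.84 with trastuzumab and -0.99 with both antibodies, and CCNB1, a mitotic cyclin, fell from 116 ± 6.18 to 51.2 ± 3.71 and 48.7 ± 6.17 CPM (changes -1.18 ± 0.10 and -1.25 ± 0.10, edgeR adjusted p = 7.76e-07 and 7.42e-08). Among the pools, BT-TR1 had 3 of them higher and 1 lower, BT-TR2 had 1 higher and 1 lower, and each of the others had 1 higher, beside 12.7% to 21.3% of all genes higher and 12.1% to 22.3% lower. The median change of the list there lay between 0.03 and 0.30, and CCNB1 had means of 115.3 to 127 CPM. The members differed among themselves: SQLE, INSIG1 and SC5D were below untreated cells in 3 of the 4 pools. By contrast, 2 sterol and 3 fatty acid members called lower in a treatment were called lower in no pool. The share of all genes with that pattern was not counted, so these members cannot be set against it. The part of proliferation in the levels of the members was not tested.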

How the data were processed

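The 34 members, the lists of related genes and the comparisons were chosen with earlier results of these data known. The authors deposited a table of counts per gene. Per the submitters' processing notes, Bowtie2, featureCounts and DESeq2 were used with hg38. Their versions and the use of strand are not given in the sources used here. The authors also deposited a table of transformed values on a log2 scale, which was used only as an alternative.

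Genes were kept with edgeR's filterByExpr (minimum count 10, minimum total count 15), counts were scaled by TMM, and edgeR's quasi-likelihood test was fitted to all 21 libraries (14 residual degrees of freedom) for 11 comparisons. A gene was called at a Benjamini-Hochberg adjusted p under 0.05 over 17650 genes. CPM are counts scaled by TMM to an equal library total, and log2 fold changes are printed with their standard errors. The precision of each level is limited by totals of 7939270 to 21746391 counts. The script was tested on simulated counts. Exon lengths, GC content and overlaps came from GENCODE 29, and promoters from RefSeq. R 4.3.3, edgeR 4.0.16, limma 3.58.1 and DESeq2 1.42.0 were used.

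Each result was recomputed under 31 alternatives: 21 that left out 1 library, and 10 that used no filter, DESeq2's size factors (RLE), DESeq2, limma on the deposited log2 values, only the groups compared, the replicate number as a block, a GC correction (a spline with 5 degrees of freedom per library), that correction with the block, replicates 2 and 3 alone, or named pseudogenes summed with their gene. The last was chosen after seeing the data. Replicate numbers come from the labels. Same-numbered libraries were taken as paired where every pair's deviations from the group means correlated at over 0.1. That held in 8 of the 11 comparisons, and not for both antibodies against untreated (lowest r = -0.011), BT-TR2 against BT-TR1 (0.073) or the mean of BT-TR1 and BT-TR2 against trastuzumab (0.073).

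Values for single libraries were given for the 8 sterol and 6 fatty acid members with the largest absolute change among those called in the 6 comparisons with untreated cells, and for SREBF1, SREBF2 and INSIG1. Those of ACSS2 and SCD were added after they were seen. From each list of related genes, the 2 called genes with the largest absolute change in a comparison could be named.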

Additional observations from a re-analysis of the deposited data

Results flagged for a closer look

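The 2 trastuzumab-resistant pools differed in 11 members by edgeR's quasi-likelihood test of the difference between BT-TR2 and BT-TR1, although each had been derived from the same cells and was compared with the same untreated libraries. Of the sterol members, STARD4 (-1.12), SC5D (-0.66), MSMO1 (-0.65), SQLE (-0.62), HMGCS1 (-0.55) and INSIG1 (-0.54) were lower in BT-TR2 on the log2 scale and PMVK (0.87) was higher. Of the fatty acid members, SCD (-0.64), ELOVL5 (-0.55), ELOVL6 (-0.53) and ACSL3 (-0.49) were lower. The differences of SQLE, INSIG1 and STARD4 held in all 31 alternatives. Calls ended without BT-TR1 2 for MSMO1, ELOVL6 and ACSL3, without BT-TR1 3 for these and ELOVL5, and without BT-TR2 1 for HMGCS1, MSMO1, SCD, ELOVL5, ELOVL6 and ACSL3 (adjusted p from 0.05 to 0.213). BT-TR1 also had the lowest totals of all groups (7939270 to 13432287 counts), and its part in these differences was not tested.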

How the results depend on the processing

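No called member changed sign in 4679 alternative values, while 303 of 6906 values of members not called did. Calls that held under all 31 alternatives numbered 8 of 18 with trastuzumab, 4 of 20 with both antibodies, 10 of 21 in BT-TR1, 9 of 17 in BT-TR2, 9 of 18 in BT-TPR1 and 12 of 16 in BT-TPR2. In BT-TR1 FDPS was 0.30 with the GC correction and 0.31 with the replicate block added. For BT-TR2 against BT-TR1, TM7SF2 was -0.39 in both of these fits, FADS2 -0.30 in the latter and CYP51A1 -0.39 with pseudogenes summed. The cause was not tested. Counts under 10 in single libraries limit ACACA and CYP51A1.

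Fitting only the groups compared, with trastuzumab the sterol members lower numbered 6 and fatty acid members lower 3 (1.3% of all genes), and with both antibodies 2 and 3 (2.86%). In BT-TR2 7 sterol members were lower, where 2682 of 16572 genes were called, 1302 of them higher. With the replicate block, trastuzumab had 19 sterol and 11 fatty acid members lower (14.8% of all genes). Both antibodies had 1 fatty acid member higher (2601 of 17650 genes) and 1 sterol member higher than with trastuzumab (1.26% of all genes). In that fit 2 sterol members were higher in BT-TR2 (22.9% of all genes), and 2 fatty acid members in each of BT-TPR1 (23.2%) and BT-TPR2 (24.6%). In BT-TR2 against BT-TR1, 5 sterol and 2 fatty acid members were higher (4014 of 17650 genes), and in BT-TPR2 against BT-TPR1 2 and 1 (5.85% of all genes). The mean of BT-TR1 and BT-TR2 against trastuzumab then had 4 sterol and 2 fatty acid members lower, where 9381 of 17650 genes were called, 4702 of them higher. The mean of BT-TPR1 and BT-TPR2 against both antibodies had 6 sterol members higher and 2 lower (25.6% and 24.8% of all genes). The block also raised the calls over all genes, for BT-TR2 against BT-TR1 from 3129 to 7555. The block moved no other count of calls by more than 1.5 times. Where libraries did not pair, this is only a shared number.

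With the GC correction, both antibodies had 1 fatty acid member higher, BT-TR2 2 sterol, BT-TPR1 1 sterol and 2 fatty acid, and BT-TPR2 2 fatty acid members higher. Of all 17554 genes, 1814, 3396, 3905 and 4026 were higher in these comparisons. BT-TR2 against BT-TR1 had 0 sterol members higher, the mean of BT-TR1 and BT-TR2 1 sterol member lower, and the mean of BT-TPR1 and BT-TPR2 6 higher and 2 lower. There 1731, 7377 and 7970 of all genes were called, 733, 3914 and 4297 of them higher. With GC correction and block together, trastuzumab had 20 sterol members lower and 1 higher, and 11 fatty acid members lower and 1 higher. Calls over all genes rose too, to 4933 of 17554 (2331 of them higher) from 1321 of 17650 with neither setting. Both antibodies then had 11 fatty acid members lower and 1 higher (5804 of all genes called, 2806 of them higher), and 1 sterol member higher than with trastuzumab (277 of all genes). Sterol members higher numbered 3 in BT-TR2, 1 in BT-TPR1 and 1 in BT-TPR2, and fatty acid members higher 2 in each of BT-TPR1 and BT-TPR2. Over all genes, 4457, 5052 and 5005 were higher in BT-TR2, BT-TPR1 and BT-TPR2. BT-TR2 against BT-TR1 had 2 sterol members higher and 7 fatty acid members lower, and BT-TPR2 against BT-TPR1 3 sterol members higher and 1 lower and 1 fatty acid member higher and 1 lower. Over all genes 3835 and 2804 were called there, 1635 and 1294 of them higher. The means had 1 sterol and 2 fatty acid members lower (trastuzumab) and 6 sterol members higher and 2 lower (both antibodies). For these means 9125 and 9756 of all genes were called, 4933 and 5421 of them higher.

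Without the filter, BT-TR2 against BT-TR1 had 5 sterol and 2 fatty acid members higher, BT-TPR2 against BT-TPR1 1 sterol member higher, and the means 2 fatty acid (trastuzumab) and 2 sterol members (both antibodies) lower. Of 37355 genes, 6244 and 6047 were called for the means, 2736 and 2690 of them higher, and 2659 and 284 were higher in the comparisons of pools. DESeq2 gave 2 and 1 sterol members higher in these comparisons of pools, where 2208 of 15623 and 363 of 19243 genes were. With replicates 2 and 3 alone, 2 sterol members were higher in BT-TR2 and 1 in BT-TPR2, 2 fatty acid members were higher in BT-TPR2, 2 sterol and 2 fatty acid members were higher in BT-TR2 against BT-TR1, and the mean of BT-TPR1 and BT-TPR2 had 5 sterol members higher and 2 lower. Of 17698 genes, 2863 were higher in BT-TR2, 3831 in BT-TPR2 and 2902 in BT-TR2 against BT-TR1. For the mean 6786 were called, 3250 of them higher. With pseudogenes summed, 2 fatty acid members were higher in BT-TPR1 and 1 sterol member in BT-TPR2 against BT-TPR1, where 2514 and 281 of 17642 genes were.

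Leaving out 1 library gave 3 to 6 fatty acid members lower with trastuzumab, and 4 to 15 sterol and 3 to 6 fatty acid members lower with both antibodies. The sterol members lower were 6 to 10 in BT-TR1, 5 to 11 in BT-TR2 (0 to 1 higher) and 6 to 12 in BT-TPR1. The fatty acid members were 3 to 5 lower in BT-TR1 and 1 to 2 higher in each of BT-TPR1 and BT-TPR2, and in BT-TR2 against BT-TR1 0 to 5 lower and 0 to 1 higher. The means gave 0 to 3 sterol and 0 to 1 fatty acid members lower (trastuzumab), and 1 to 2 and 1 to 3 (both antibodies).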
